A study of Mus musculus with 8 samples.

Results

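The frontal bone of the skull was compared with the femur, the long bone of the thigh, across all genes. RNA had been sequenced from bone fractions enriched for osteocytes, the cells that live inside mineralized matrix. The comparison took 6 of the 8 libraries of the series, namely the 3 made from frontal bone and the 3 made from femur, as their labels name them. The 2 remaining libraries, from parietal bone, enter only where frontal bone is set against them. All mice were C57BL/6 and 12 weeks old, the labels give no treatment and no genotype, and every fraction is labelled as osteocytes. The labels give neither the time of day nor the time from dissection to lysis, and do not tell whether libraries are separate animals or pools. What the p-values measure is therefore the spread among the libraries, and part or all of it may be technical. Libraries carry the numbers 1, 2 and 4 in their descriptions, and values below are listed in that order.

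Both bones make the same kind of mature cell by different routes. The frontal bone arises from cranial neural crest and ossifies directly from mesenchyme, while the femur arises from limb mesoderm and replaces a cartilage model. Osteocytes sit in small cavities, connect through fine processes, sense load, and send signals such as sclerostin and RANKL to the cells on the bone surface. Both bones also enclose marrow, so a fraction enriched for osteocytes can hold blood-forming cells.

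Total gene counts ran from 6259229 to 11069689 in the femur libraries and from 7025433 to 9641928 in the frontal ones. Levels are given as CPM, a gene's counts relative to the library total after scaling by TMM (trimmed mean of M values). Differences are log2 fold changes of frontal over femur with their standard error (SE), from edgeR's quasi-likelihood test. A gene rose or fell where its Benjamini-Hochberg adjusted p over all genes tested was below 0.05, and it passed the stricter test where it also differed by more than 2-fold (edgeR's glmTreat, same threshold). All adjusted p-values below come from these tests. Of 14308 genes tested, 56.9% differed, 27.5% being higher and 29.4% lower in frontal bone. The stricter test was passed by 728 genes upward, which is 5.09%, and by 1564 genes downward, which is 10.9%. For 9370 genes, or 65.5%, the 3 libraries of either bone lay wholly above those of the other. The median gene stood at a log2 fold change of 0.02. Counts of list members below are to be read against these shares. Members with a mean below 0.5 CPM in frontal bone passed the filter on low counts through femur alone and could hardly be seen to rise, and their number is given where a list held more than 1.

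**Figure D1:**
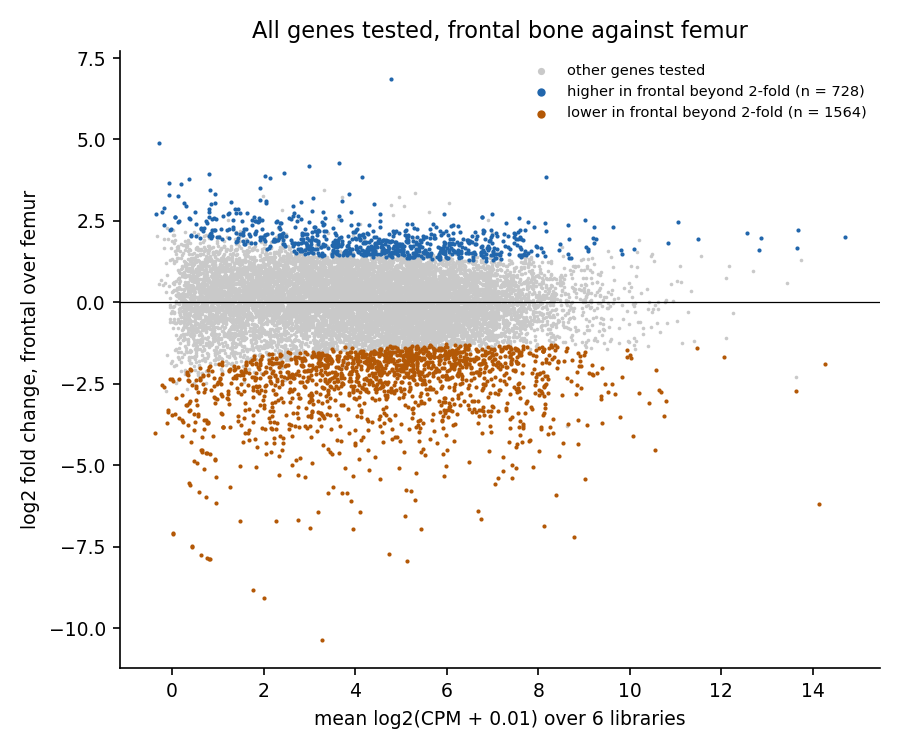
Each point is 1 of the 14308 genes tested, placed by its mean log2 CPM over the 6 libraries (x axis) and its log2 fold change of frontal over femur (y axis). Coloured points passed the test beyond 2-fold, 728 upward and 1564 downward, and the downward cloud reaches much farther from 0 than the upward one.

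The falls were the larger of the changes. Among the genes past the stricter test, 304 lay more than 10-fold lower and 16 more than 10-fold higher in frontal bone. There were 11 tested genes without any count in the frontal libraries and with at least 30 counts in femur, and 0 genes of the opposite kind. The split between directions depended on how libraries were scaled. Upper quartile scaling gave 1118 genes upward and 1288 downward beyond 2-fold, and library size alone gave 953 and 1296. On those scales the median gene stood at 0.20 and 0.16, so directions below are relative to the TMM scale. Without frontal library 4, 458 genes passed upward, and limma-voom and DESeq2 passed 370 and 349. Libraries of 1 bone were alike, with Spearman correlations across genes of 0.97 to 0.98, against 0.812 to 0.897 between the bones.

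The label of the fractions was checked against osteocyte markers. Dmp1, a phosphoprotein of the matrix around osteocytes, stood at 43589, 43019 and 19608 CPM in femur and at 356, 546 and 570.4 CPM in frontal bone. Sost, which encodes sclerostin, stood at 253, 230.4 and 439 CPM in femur and 26.7, 20.4 and 30.7 CPM in frontal bone. Both markers were present in every library, at levels that did not overlap between the bones. Fgf23, the phosphate hormone of osteocytes, named after its values were seen, did overlap, at 6.55, 6.72 and 8.08 CPM in femur and 15.4, 7.16 and 4.94 CPM in frontal bone (0.36 ± 0.37, adjusted p = 0.431). The channel gene Kcnk2 of the same list did not pass either. The 17 tested osteocyte genes together took 3.94 ± 1.29% (SD, n = 3) of counts in femur and 0.205 ± 0.0284% (SD, n = 3) in frontal bone. Dmp1 alone held most of that femur share, so the gap in shares is largely that of Dmp1. The median log2 fold change over the list was -3.03. In bulk RNA, fewer cells of a type and less RNA per cell cannot be told apart, and this holds for every group below.

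Transcripts of red cells and of later neutrophil granules took more of the frontal libraries. Those of the resident macrophage, megakaryocyte and progenitor lists took less, as given at the end. Globins held 1.09 to 2.68% of counts in femur and 6.72 to 10.5% in frontal bone, and genes of the later neutrophil granules held 2.11 to 5.46% and 8.50 to 9.89%. Bone-forming transcripts took less. Osteoblast and bone matrix genes held 8.19 ± 1.41% in femur and 2.16 ± 1.28% in frontal bone, with frontal library 2 the highest of the frontal ones. These shares are descriptions, since 3 libraries against 3 cannot give an exact permutation p below 0.10. They differ between the same bones as the gene groups below, and their part in those differences was not tested.

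**Figure D2:**
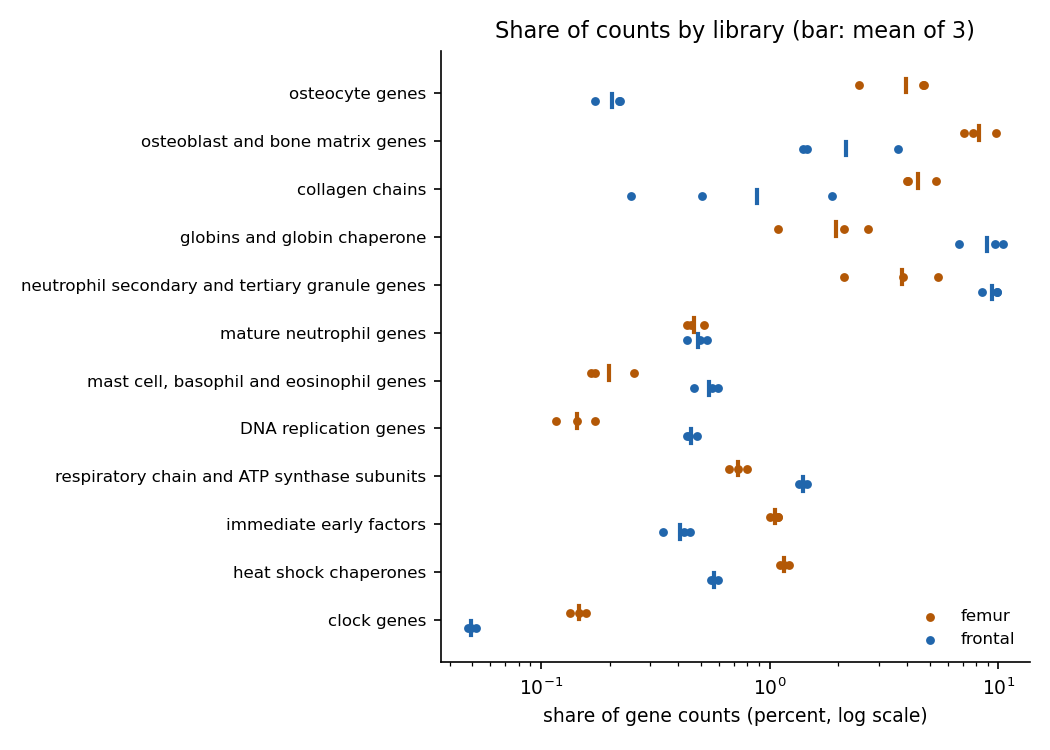
Share of gene counts (percent, log axis) taken by 12 gene lists in each of the 6 libraries, with femur and frontal libraries as points of different colour and the mean of each bone as a bar. Blood cell, cell cycle and respiratory chain lists lie higher in frontal bone and bone cell, clock and stress lists lie lower, and the mature neutrophil list overlaps.

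The largest rises were ranked without predicted gene models, pseudogenes and antigen receptor segments. Ranked genes had at least 5 CPM in the higher bone and no overlap between the bones. Tac2 and Aldh1a7 led that ranking, and Car1, Pklr and Hebp1, described below, came before Mylpf and Slc6a20a. Tac2 on chromosome 10 (127724478 to 127731768, GRCm38), which encodes the precursor of the neuropeptide neurokinin B, stood at 0.690, 0.662 and 0.586 CPM in femur and 10.6, 8.31 and 12.0 CPM in frontal bone (log2 fold change 3.96 ± 0.31, adjusted p = 1.2e-05). Aldh1a7 on chromosome 19 (20692953 to 20727562), an aldehyde dehydrogenase close in sequence to Aldh1a1, stood at 0, 0.378 and 1.05 and 7.20, 8.22 and 7.77 CPM (3.87 ± 0.52). Aldh1a7 passed the filter on low counts through frontal bone alone. Slc6a20a on chromosome 9 (123634770 to 123678885), a transporter of proline and related amino acids, stood at 1.55, 1.61 and 1.29 CPM in femur and 13.8, 9.36 and 14.7 CPM in frontal bone (3.07 ± 0.29). Mylpf on chromosome 7 (127208890 to 127214298), a myosin light chain of fast muscle fibres, stood at 1.55, 2.27 and 1.05 and 13.6, 10.99 and 21.6 CPM (3.19 ± 0.36). Frontal library 4 was the highest of the 3 in Mylpf, Slc6a20a and Tac2.

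Most of the other large rises were in genes of blood cells. Car1, the carbonic anhydrase of red cells, rose from 25.3, 41.8 and 44.4 CPM to 503, 501 and 614 CPM (3.85 ± 0.23, adjusted p = 3.75e-06). Pklr, the pyruvate kinase of liver and red cells (3.52), Hebp1, a heme-binding protein (3.32), and Smim1, which carries a red cell blood group (2.72), rose as well. Klrb1c, a receptor of natural killer cells, rose by 3.11, and Ly6g, a surface protein of neutrophils, by 2.70. Ly6g belongs to a family of close copies, so its counts are uncertain. Slc25a21, a mitochondrial carrier (3.02), Mgst3, a glutathione transferase of membranes (2.72), the long noncoding RNA Redrum (2.77), the elastase Cela1 (2.64) and the histone gene Hist1h2an (2.64) completed the 15 largest rises. Histone genes too are close copies. Outside that ranking was Ighg3, the constant segment of an antibody heavy chain, named after its values were seen. Ighg3 stood at 1.38, 0.189 and 0.117 CPM in femur and 122, 18.7 and 22.6 CPM in frontal bone (6.86 ± 1.28), with frontal library 1 far above the others. Of 12 plasma cell genes tested, 4 rose and 4 fell, beside 27.5% and 29.4% of all genes. Their share of counts overlapped, at 0.0818 to 0.119% in femur and 0.0850 to 0.155% in frontal bone. By abundance, the highest genes past the stricter test also included Gpx1 and Prdx2, which remove peroxides (1.95 and 2.32), Lyz2, the lysozyme of myeloid cells (1.59), Cd24a, a surface protein of immature blood cells (1.65), and Hmgb2, a chromatin protein of dividing cells (1.60).

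The largest falls, ranked in the same way, were larger than any of the rises in that ranking. Fgf1, a fibroblast growth factor without a secretion signal, stood at 1282, 829 and 509.9 CPM in femur and 3.36, 6.88 and 7.63 CPM in frontal bone (-7.20 ± 0.44, adjusted p = 4.42e-06). Il11, a cytokine of bone turnover, stood at 83.6, 87.6 and 37.3 and 0.360, 0.287 and 0.141 CPM (-7.93 ± 0.49). In both genes every frontal library was more than 10-fold below every femur library. Thbs4, a matrix protein of tendon and muscle attachments (-7.73), Adamtsl2, a matrix protein that binds microfibrils (-6.94), Anxa8, an annexin (-6.56), and Dok7, an adaptor known from the neuromuscular junction (-6.96), fell too. Neu2, a sialidase, had 0 counts in frontal bone against 462 in femur, and was at least 160-fold lower, taking 3 counts over the 3 frontal libraries as the floor. Sprr1a, an envelope protein of stressed epithelia, and Wnt16, a Wnt of cortical bone, also had 0 frontal counts and were at least 67.6-fold and 57.5-fold lower. The transcription factors Foxa3 and Osr1 and the guidance ligand Sema3e had 1 to 3 frontal counts, and their femur levels were 137-fold (95% counting interval 46.5 to 666), 148-fold (26.1 to 5870) and 112-fold (38.1 to 547) higher.

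Among the most abundant genes past the stricter test downward, Spp1, which encodes osteopontin, stood at 37602, 31811 and 24266 CPM in femur and 5875, 10824 and 8509.7 CPM in frontal bone (-1.89 ± 0.29). Gja1, the connexin of gap junctions between osteocyte processes, stood at 3957, 3129 and 2449.9 and 215, 365 and 278 CPM (-3.47 ± 0.26). Cd44, the hyaluronan receptor (-2.79), Ahnak, a large scaffold under the plasma membrane (-3.52), Anxa2 (-2.06), Clic4, an intracellular chloride channel protein (-2.75), Emp1 (-3.08), Sparc, a collagen-binding glycoprotein (-1.68), and Sqstm1, the autophagy receptor p62 (-2.67), fell in the same list.

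**Figure D3:**
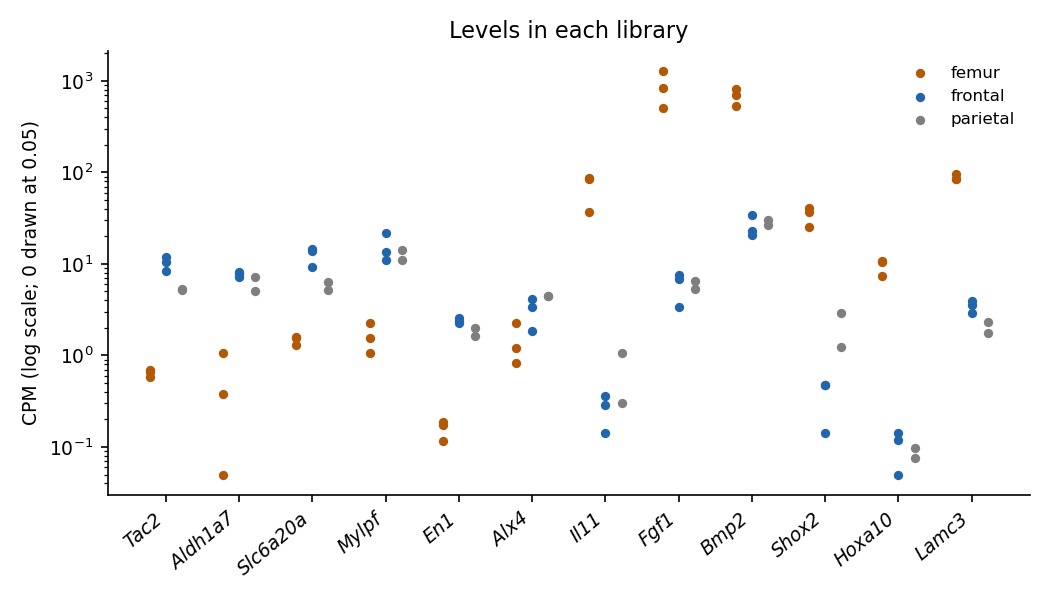
CPM of 12 genes in each library (log axis, values of 0 drawn at 0.05 CPM), by bone, with the 2 parietal libraries beside on the scale of the fit of all 8 libraries. Tac2, Aldh1a7, Slc6a20a, Mylpf and En1 lie above femur in every frontal library, Alx4 overlaps, and Il11, Fgf1, Bmp2, Shox2, Hoxa10 and Lamc3 lie far below femur.

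Position along the body was described by the Hox genes, which mark trunk and limb levels and are silent in the anterior head. Of 39 Hox genes in the list, 7 were expressed enough to test, and all were called lower in frontal bone. For 5 of these the mean frontal level was under 0.5 CPM, so they passed the filter only through femur and could only be seen to fall. Hoxa10, a gene of the proximal hindlimb, stood at 7.41, 10.8 and 10.4 CPM in femur and 0.120, 0 and 0.141 CPM in frontal bone, a 128-fold gap (95% counting interval 35.0 to 1061). Hoxc9 had 0 frontal counts and was at least 29.1-fold lower, and Hoxc6, named after its value was seen, at least 17.7-fold. Hoxc10 was 59.8-fold (16.2 to 499) and Hoxa5 26.0-fold (8.56 to 129) higher in femur. Hoxa9 was read in all 6 libraries, at 6.03, 6.72 and 4.92 and 1.44, 2.39 and 1.41 CPM (-1.72 ± 0.32, adjusted p = 0.00122).

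Of 15 limb patterning factors tested, 11 fell and 2 rose. For 4 of them, Shox2 included, the mean frontal level was under 0.5 CPM. Shox2, a homeodomain factor of the proximal limb, stood at 36.7, 40.5 and 25.3 CPM in femur and 0.480, 0.478 and 0.141 CPM in frontal bone (-6.42 ± 0.36). Irx3 and Irx5, factors of proximal limb outgrowth, fell by 3.76 and 2.90 on the log2 scale, and Tbx3, a T-box factor of limb borders, by 4.73. Prrx1, which marks limb and head mesenchyme, fell by 1.07. En1, a homeodomain factor active in limb ectoderm, hindbrain border and cranial mesenchyme, went the other way, at 0.172, 0.189 and 0.117 CPM in femur and 2.28, 2.39 and 2.54 CPM in frontal bone (3.78 ± 0.49, adjusted p = 0.000167). En1 passed the filter through frontal bone alone, and at these levels its fold change rests on few femur counts.

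Factors known from the neural crest and the skull mostly fell. Of 19 tested, 15 fell and the other 4 did not pass, and 2 were under 0.5 CPM in frontal bone. The filter on low counts left out many members. With no filter 40 were tested, of which 16 fell and 2 rose. With all 8 libraries fitted 15 of 25 fell and 2 rose, and without femur library 2 16 of 22 fell and 2 rose. Dlx3, a homeodomain factor of bone and tooth formation, stood at 40.3, 50.8 and 45.0 CPM in femur and 1.56, 4.97 and 1.84 CPM in frontal bone (-3.96 ± 0.36). Foxc2, a forkhead factor of mesenchyme, stood at 13.96, 16.4 and 14.3 and 2.16, 1.91 and 1.41 CPM (-3.01 ± 0.25). Dlx5, an activator of osteoblast genes (-1.72), and Sox9, the master factor of cartilage (-1.71), fell too. Alx4, a factor of skull vault growth, was named after its values were seen: it stood at 1.21, 2.27 and 0.820 CPM in femur and 3.36, 4.11 and 1.84 CPM in frontal bone, groups that overlapped (1.08 ± 0.45, adjusted p = 0.0641). Alx4 passed without femur library 2 (1.65, adjusted p = 0.0311), without frontal library 4 (1.34, adjusted p = 0.0388) and with the trend on transcript length and GC content removed (1.68, adjusted p = 0.00689), and in 9 of 17 alternatives in all. Its relative Alx1 was too low to test, with 0, 4 and 2 counts in the femur libraries and 24, 5 and 34 in the frontal ones, and Zic1 had 0, 2 and 0 against 1, 9 and 4.

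In the osteocyte list, which includes Dmp1 and Sost, 13 of 17 genes fell and 2 rose. Fam20c, the kinase that phosphorylates secreted matrix proteins, stood at 403, 372 and 375 CPM in femur and 23.6, 29.1 and 26.0 CPM in frontal bone (-3.86 ± 0.15). Pdpn, podoplanin, a membrane protein of early osteocyte processes, stood at 99.6, 76.4 and 44.6 and 1.44, 1.05 and 1.55 CPM (-5.78 ± 0.36). The genes that rose, Capg (0.66) and Dstn (0.59), encode proteins that cap and sever actin filaments and are made by many cells. Capg did not pass without femur library 2 (0.59, adjusted p = 0.0608), nor Dstn with the trend on length and GC removed (0.21, adjusted p = 0.281). In the osteoblast and bone matrix list, 20 of 24 fell and the rest did not pass. Sp7, osterix, the factor that commits osteoblasts, fell by 2.93, and Alpl, the alkaline phosphatase of mineralization, by 2.58. Ibsp, bone sialoprotein, named after its values were seen, stood at 1417, 909 and 895 and 730.0, 1174 and 764 CPM and did not pass (-0.27 ± 0.24, adjusted p = 0.361).

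Collagen genes fell widely. Of 29 chains tested, 23 fell, 19 of them past the stricter test, with a median log2 fold change of -2.28, or -1.53 with the trend on transcript length and GC content removed. Col1a2, a chain of type I collagen, the main protein of bone, stood at 27572, 19133 and 19604 CPM in femur and 2262, 6591 and 1169 CPM in frontal bone (-2.73 ± 0.55). Col1a1, its partner chain, stood at 25364, 18920.3 and 18469.9 and 2165, 9909 and 839 CPM (-2.28 ± 0.80, adjusted p = 0.0403). In both genes frontal library 2 was the highest frontal library by far, though still below femur. Col1a1 did not pass without femur library 1, 2 or 4 or without frontal library 1 (-1.95 to -2.37, adjusted p = 0.0511 to 0.195), nor with the trend removed (-1.52, adjusted p = 0.0977), nor with all 8 libraries, upper quartile factors or no filter on low counts (adjusted p = 0.0579, 0.0582 and 0.274). Collagens of other matrices fell with smaller spread, such as Col5a1 of mixed fibrils (-2.11), the microfibril chains Col6a2 (-1.76) and Col6a3 (-2.18), and the membrane collagen Col25a1 (-1.59). The enzymes that fold and cross-link collagen followed, with 24 of 32 lower and 1 higher. P4ha1 and P4ha2, prolyl hydroxylases, fell by 2.61 and 2.95, Plod2, the lysyl hydroxylase of bone cross-links, by 3.10, and Creb3l1, a factor that drives collagen secretion, by 3.49. The member that rose was Ppib, a prolyl isomerase (0.73).

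Basement membrane and cell attachment genes differed in the same direction. Of 9 laminin chains 8 fell, with a median of -2.50. Lamc3 on chromosome 2 (31887291 to 31946539) stood at 95.9, 84.9 and 83.9 CPM in femur and 2.88, 3.53 and 3.96 CPM in frontal bone (-4.67 ± 0.18, adjusted p = 1.41e-06), a small spread within each bone. Lama4 (-3.72), Lamb2 (-3.69) and Lamc1 (-2.50) fell as well. Integrins, the receptors for matrix, were split. Of 23 subunits 11 fell, among them the collagen receptor Itga2 (-4.19), the RGD-binding subunit Itgav (-2.17) and the shared subunit Itgb1 (-1.42). The 3 that rose, Itga4 (1.17), Itgal (0.89) and Itgb2 (0.91), are subunits of white blood cells.

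Matrix proteases and their inhibitors were lower for the most part. Of 16, 10 fell and 3 rose. Mmp14, the membrane-bound collagenase, stood at 432, 415 and 399 CPM in femur and 77.7, 90.2 and 64.1 CPM in frontal bone (-2.42 ± 0.16), and the inhibitors Timp2 (-2.51) and Timp1 (-2.03) fell beside it. Mmp8, the collagenase of neutrophil granules, rose (1.59). Of 17 ADAMTS genes, 13 fell, including the proteoglycan-cleaving Adamts1 (-2.14) and Adamts4 (-1.68). The small leucine-rich proteoglycans, which coat collagen fibrils, were mixed, with 6 of 13 lower and 2 higher. Biglycan (Bgn) fell by 1.61 and fibromodulin (Fmod) by 2.96, while osteoglycin (Ogn) rose by 0.88 and Podnl1 by 1.11.

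Cartilage genes were lower in frontal bone. Of 10 tested, 8 fell, and 3, Ihh included, were under 0.5 CPM in frontal bone. Col2a1, the fibril collagen of cartilage, stood at 790.3, 651 and 233 CPM in femur and 2.40, 8.79 and 2.54 CPM in frontal bone (-6.87 ± 0.70), and Col11a1, its partner, at 510.0, 405 and 229 and 14.4, 32.8 and 10.7 CPM (-4.28 ± 0.46). Ihh, the hedgehog of growth plate chondrocytes, stood at 7.93, 9.18 and 6.68 and 0.120, 0.478 and 0.565 CPM (-4.31 ± 0.41). Other defining cartilage genes were scarce in femur too: Acan had 8, 5 and 30 counts there and Col10a1 18, 8 and 22, too few to test. Sox6, which chondrocytes and red cell precursors share, rose (1.53). Among tendon and periosteum genes 7 of 13 fell, including the tendon factor Mkx (-2.32), periostin (Postn, -2.04) and Thbs2 (-2.82).

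Genes of Wnt signalling, which drives bone formation, were mostly lower among ligands, receptors and antagonists alike. The level of signalling itself was not tested. Of 8 ligands tested 7 fell, 2 of the tested ones being under 0.5 CPM in frontal bone. Wnt5b, a ligand of the branch without beta-catenin, stood at 255, 199 and 158 CPM in femur and 1.68, 3.63 and 1.55 CPM in frontal bone (-6.41 ± 0.32), and Wnt1, a Wnt needed for bone mass, at 59.5, 72.8 and 48.0 and 0.839, 2.77 and 1.55 CPM (-5.07 ± 0.34). Wnt10b (-3.75) and Wnt11 (-3.13) fell too. Among receptors, R-spondins and Lgr proteins 15 of 19 fell. The R-spondin receptor Lgr6 stood at 145, 122 and 93.9 and 1.92, 4.11 and 2.83 CPM (-5.32 ± 0.28). Fzd3 (-4.11), Fzd7 (-2.97) and Ryk (-3.49) fell beside it. Rspo2, a secreted amplifier of Wnt signals, was the reverse, at 1.38, 1.04 and 0.937 CPM in femur and 3.72, 8.60 and 6.50 CPM in frontal bone (2.51 ± 0.40, adjusted p = 0.000515), and Lgr5, another R-spondin receptor, rose by 1.08, though not without femur library 2 (0.99, adjusted p = 0.0556). Of 13 secreted antagonists 11 fell (2 of the tested ones under 0.5 CPM in frontal bone), such as Sfrp4 (-2.83), Kremen1 (-2.71) and Dkk1 (-2.38), and Dkkl1 rose (2.003).

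The BMP family, which induces bone, behaved alike. Of 15 BMP and GDF ligands 13 fell. Bmp2 stood at 813, 698 and 529 CPM in femur and 22.9, 34.1 and 20.8 CPM in frontal bone (-4.71 ± 0.25), and Bmp8a at 447, 398 and 224 and 11.8, 10.8 and 8.90 CPM (-5.08 ± 0.28). Bmp7 (-4.19) and Bmp8b (-6.08) were lower as well, while Gdf3, a ligand best known from the early embryo, rose from 0.862, 0.851 and 0.469 CPM to 5.88, 5.92 and 2.83 CPM (2.74 ± 0.43). Of 11 antagonists 8 fell, among them Nbl1 (-3.75), Fstl3 (-4.94) and Twsg1 (-2.76). In the FGF family 6 of 9 fell, with Fgfr1, the main receptor of osteocytes, at -3.38, Fgf9 at -3.79 and Fgf7 at -2.25. Hedgehog genes fell in 7 of 10 cases, including the co-receptors Boc (-3.28) and Gas1 (-2.13). Of 14 Notch genes 11 fell, such as the ligands Jag1 (-2.13) and Jag2 (-3.01) and the target Hes1 (-2.44), and Lfng, a modifier of Notch, rose (0.65). The call of Lfng was lost without femur library 2 or frontal library 1 or 2 (0.49 to 0.58, adjusted p = 0.0878 to 0.137).

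Guidance molecules, which steer axons, vessels and migrating cells, formed the longest of these signalling lists. Of 52 tested 36 fell and 2 rose. Sema3d, a secreted semaphorin, stood at 375, 326 and 165 CPM in femur and 5.88, 16.3 and 9.89 CPM in frontal bone (-4.73 ± 0.41), and Nrp2, a semaphorin receptor, at 605, 510.1 and 362 and 63.0, 83.7 and 56.5 CPM (-2.86 ± 0.23). Epha2 (-3.11), Sema6d (-3.01), Sema4c (-2.79) and Sema5a (-2.64) were lower too. Those that rose were Efna5 (0.89) and Sema4b (0.63). Efna5 did not pass without femur library 4 (0.73, adjusted p = 0.0588), nor Sema4b without femur library 1 or 4 or frontal library 1 or 4 (0.54 to 0.60, adjusted p = 0.0549 to 0.076). Among neuropeptides and their receptors 4 of 6 fell, with galanin (Gal) at 19.8, 15.99 and 10.4 CPM in femur and 1.32, 3.44 and 1.84 CPM in frontal bone (-2.76 ± 0.37), Npy at -3.66, Penk at -1.65 and Calca at -1.46. Tac2 was the only tested member of that list that rose.

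Signals to osteoclasts, the cells that resorb bone, moved both ways. Of 15, 8 fell and 4 rose. Tnfsf11, which encodes the osteoclast inducer RANKL, stood at 113, 112 and 118 CPM in femur and 17.4, 19.8 and 19.8 CPM in frontal bone (-2.59 ± 0.14). Its decoy receptor Tnfrsf11b, osteoprotegerin, named after its values were seen, stood at 1339, 1141 and 549 and 12.2, 37.6 and 19.8 CPM (-5.43 ± 0.49). The cytokines Lif (-3.69) and Il6 (-2.57) fell. Cxcl12, a chemokine that retains blood progenitors, stood at 708, 560.2 and 701 CPM in femur and 1313, 1575 and 1378 CPM in frontal bone (1.12 ± 0.16), and Il34 (1.37), Tnf (1.01) and Il1b (0.85) rose with it, Il1b not passing with the trend on length and GC removed (0.35, adjusted p = 0.118). Osteoclast genes themselves rose in 6 of 16 cases and fell in 3. Car2, shared with red cells, rose by 2.46, while the osteoclast factor Nfatc1 fell by 2.61 and the creatine kinase Ckb by 2.17. Ctsk, the collagen-digesting protease of osteoclasts, stood at 447, 631 and 794 CPM in femur and 719, 1199 and 1076 CPM in frontal bone (0.68 ± 0.24, adjusted p = 0.0372), with the bones overlapping. Ctsk did not pass without femur library 1 or 2 or frontal library 2 or 4 (0.48 to 0.68, adjusted p = 0.0933 to 0.106), nor with the trend on length and GC removed (0.25, adjusted p = 0.387), and without each of those libraries 2 or 3 osteoclast genes rose.

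Among genes of lipid-derived signals, Ptgs2, the inducible cyclooxygenase of the prostaglandin response to load, stood at 2571, 1885 and 1623 CPM in femur and 79.7, 183 and 90.0 CPM in frontal bone (-4.10 ± 0.35). Ptges and Ptgis (-1.88), which finish prostaglandin E and prostacyclin, fell. In all, 5 of 17 prostaglandin genes fell, the same share as the 29.4% of all genes, and 1 rose. Genes for enzymes of retinoic acid synthesis differed in both directions. Aldh1a3, a retinaldehyde dehydrogenase, stood at 25.3, 22.3 and 15.1 CPM in femur and 0.360, 0.478 and 0.141 CPM in frontal bone (-5.86 ± 0.38), while Aldh1a1, another, stood at 9.65, 15.1 and 17.1 and 66.1, 59.0 and 79.1 CPM (2.27 ± 0.22). Rdh10, which makes retinaldehyde, fell by 2.84, and the receptors Rxra and Rara by 1.76 and 1.24. In all, 8 of 15 retinoid genes fell and 4 rose. Aldh1a1 and Aldh1a7 are close copies, so reads may have been split between them.

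Channels and carriers of the cell membrane showed a similar mix. Of 26 potassium channel genes 15 fell and 2 rose, with 3 under 0.5 CPM in frontal bone. Kcnk1, a leak channel, stood at 116, 105 and 95.4 CPM in femur and 4.08, 7.45 and 3.96 CPM in frontal bone (-4.32 ± 0.25), and the calcium-activated channel Kcnma1 (-4.81) and the accessory subunit Kcne4 (-3.81) fell too. Of 36 amino acid transporters 19 fell and 7 rose, with 2 under that level. Slc38a2, which takes up glutamine and alanine, stood at 1541, 1183 and 1255 and 229, 219.5 and 250.2 CPM (-2.51 ± 0.16), while its relative Slc38a5 stood at 7.76, 14.2 and 26.8 and 94.4, 66.6 and 102 CPM (2.41 ± 0.36). These relatives thus lay in opposite order in the bones. Carbonic anhydrases split likewise, 3 of 8 rising and 4 falling. The cytosolic Car1 and Car2 and the membrane form Car9 (1.32) were higher, and the muscle form Car3 (-1.64) and the membrane form Car12 (-3.27) were lower in frontal bone.

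Imprinted genes, which are expressed from a single parental copy and often restrain or promote growth, fell in 10 of 13 cases. Plagl1, a zinc finger factor, stood at 144, 109 and 77.5 CPM in femur and 10.1, 8.79 and 7.77 CPM in frontal bone (-3.62 ± 0.24). Cdkn1c, an inhibitor of cell division, stood at 72.9, 69.4 and 69.1 and 7.44, 10.03 and 7.63 CPM (-3.06 ± 0.17). Grb10 (-2.39) and Mest (-1.85) fell as well. Cell division genes lay the other way. All 28 mitosis genes tested rose, 18 of them past the stricter test, and 34 of 36 DNA replication genes rose, 23 past it. Rrm2, which makes DNA building blocks, stood at 92.1, 126 and 166 CPM in femur and 677, 509.9 and 827 CPM in frontal bone (2.39 ± 0.25). Mki67, the usual marker of dividing cells, stood at 148, 254 and 238 and 550.3, 658 and 574 CPM (1.48 ± 0.21), and Birc5 (2.46), Ccnb1 (2.21), Tk1 (2.36) and Rfc4 (2.26) rose too. Between the bones these genes differed in the same direction as the globin and granule shares above, whose part was not tested. Within frontal bone, library 2 was the lowest in globins (9.65, 6.72 and 10.5% of counts) and DNA replication genes (0.445, 0.435 and 0.484%). It was not the lowest in mitosis genes (0.492, 0.537 and 0.554%). Within femur, library 1 was the lowest and library 4 the highest in each of these lists. Globins held 1.09, 2.11 and 2.68% of counts there, DNA replication genes 0.117, 0.145 and 0.172%, and mitosis genes 0.103, 0.167 and 0.185%.

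Genes that answer stimuli within minutes were lower in frontal bone. Of 27 immediate early genes 24 fell, 16 of them past the stricter test. Egr1, a zinc finger factor, stood at 1618, 1397 and 1292 CPM in femur and 225, 177 and 209 CPM in frontal bone (-2.82 ± 0.17). Ier3 (-2.74), Fosl1 (-2.51) and Fosb (-2.33) fell as well. Heat shock genes fell in 14 of 20 cases. Cryab, a small chaperone, stood at 1212, 712 and 768 CPM in femur and 42.9, 33.2 and 56.1 CPM in frontal bone (-4.35 ± 0.28), and Bag3, which partners Hsp70 in clearing damaged protein, at 204, 165 and 180.2 and 17.4, 20.4 and 14.8 CPM (-3.37 ± 0.17). Ahsa1, an activator of Hsp90, was the member that rose (0.61), though not with the trend on length and GC removed (0.29, adjusted p = 0.0652).

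Promoters of the immediate early and heat shock lists were searched for motifs. Among immediate early genes the CArG box (CC, a run of A or T, GG) was in 1 of 22 promoters, beside 1.18% of those of tested genes. TGACGTCA was in 2 of 22, beside 2.74%. The heat shock list was searched for a heat shock motif. Heat shock factor binds inverted repeats of GAA, searched here as GAANNTTC on both strands in the 250 bases before the gene start (RefSeq, GRCm38.p6). The motif was in 5 of the 15 listed and tested genes with a promoter in the table, or 33.3%, in 5.01% of the 10192 promoters of tested genes and in 6.78% of all 27025 promoters. The promoters of Hspb1 and Hspa1a are printed because both genes fell, Hspb1 with a log2 fold change of -2.67 and Hspa1a, named after its value was seen, with one of -2.17. Hspa1a has a near-identical neighbour, Hspa1b, so its counts are uncertain. Both are written 5′ to 3′ with the motif in capitals, Hspb1 from the plus strand at chr5:135887669-135887918 and Hspa1a from the minus strand at chr17:34972157-34972406.
Hspb1: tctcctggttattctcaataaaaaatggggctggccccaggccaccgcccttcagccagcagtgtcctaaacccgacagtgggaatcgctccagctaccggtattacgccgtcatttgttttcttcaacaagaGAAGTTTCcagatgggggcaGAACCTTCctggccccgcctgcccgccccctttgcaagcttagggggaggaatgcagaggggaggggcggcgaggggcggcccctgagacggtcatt
Hspa1a: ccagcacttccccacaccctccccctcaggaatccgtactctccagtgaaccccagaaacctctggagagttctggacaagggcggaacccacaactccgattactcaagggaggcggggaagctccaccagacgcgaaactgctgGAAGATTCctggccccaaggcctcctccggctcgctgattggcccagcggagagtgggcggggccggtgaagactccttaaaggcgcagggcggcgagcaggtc
The window of Hspb1 holds 2 matches and that of Hspa1a holds 1. A match describes the sequence and is no evidence of binding in these samples.

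Of 27 genes of the unfolded protein response, which relieves the secretory pathway, 17 fell, with a median of -0.59. Dnajb9 (-2.18), Atf6 (-1.76) and Trib3 (-2.36) fell, and Hspa5, its main chaperone, stood at 3596, 2972 and 2956 CPM in femur and 1212, 1323 and 1449 CPM in frontal bone (-1.26 ± 0.17). Clock genes fell in 14 of 18 cases. Nr1d1, the repressor REV-ERB alpha, stood at 138, 114 and 105 CPM in femur and 17.7, 13.3 and 11.2 CPM in frontal bone (-3.08 ± 0.20), and Nr1d2 (-3.31), Cry1 (-1.93), Cry2 (-2.09) and Rora (-2.003) fell too. Per3, a period gene, rose, at 2.59, 3.88 and 3.28 and 9.35, 4.39 and 8.48 CPM (1.15 ± 0.33, adjusted p = 0.0145), but did not pass without frontal library 1 (0.95, adjusted p = 0.06). Hypoxia targets fell in 18 of 24 cases, among them Vegfa, the main growth factor of vessels, at 1574, 1334 and 832 CPM in femur and 105, 105 and 78.3 CPM in frontal bone (-3.70 ± 0.26), Adm (-3.47) and Ndrg1 (-2.61).

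Energy genes split by genome. Of 76 nuclear genes for respiratory chain and ATP synthase subunits, 69 rose, with a median of 1.01. Ndufb3, a subunit of complex I, stood at 24.7, 30.7 and 32.3 CPM in femur and 103, 98.0 and 109.6 CPM in frontal bone (1.82 ± 0.15), and Uqcr11 of complex III at 31.9, 40.1 and 46.9 and 142, 134 and 144 CPM (1.82 ± 0.16). Of the 12 respiratory chain genes encoded in the mitochondrial genome, 0 passed by edgeR, in either direction, and 0 did at an unadjusted p below 0.05. By limma-voom and by DESeq2, 0 passed. Among these mt-Co1 stood at 1943, 1105 and 1657 CPM in femur and 1613, 1799 and 1362 CPM in frontal bone, which overlapped (0.02 ± 0.22, adjusted p = 0.943). Mitochondrial ribosomal proteins rose in 55 of 76 cases (median 0.72), such as Mrpl42 (1.66) and Mrps14 (1.31). Cytosolic ribosomal proteins rose in 56 of 84 cases by little, with a median of 0.43, and with the trend on transcript length and GC removed 14 rose. Glycolytic enzymes were split, 8 of 20 falling, such as Hk1 (-1.80) and Pkm (-0.77), and 4 rising, led by Pklr.

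**Figure D4:**
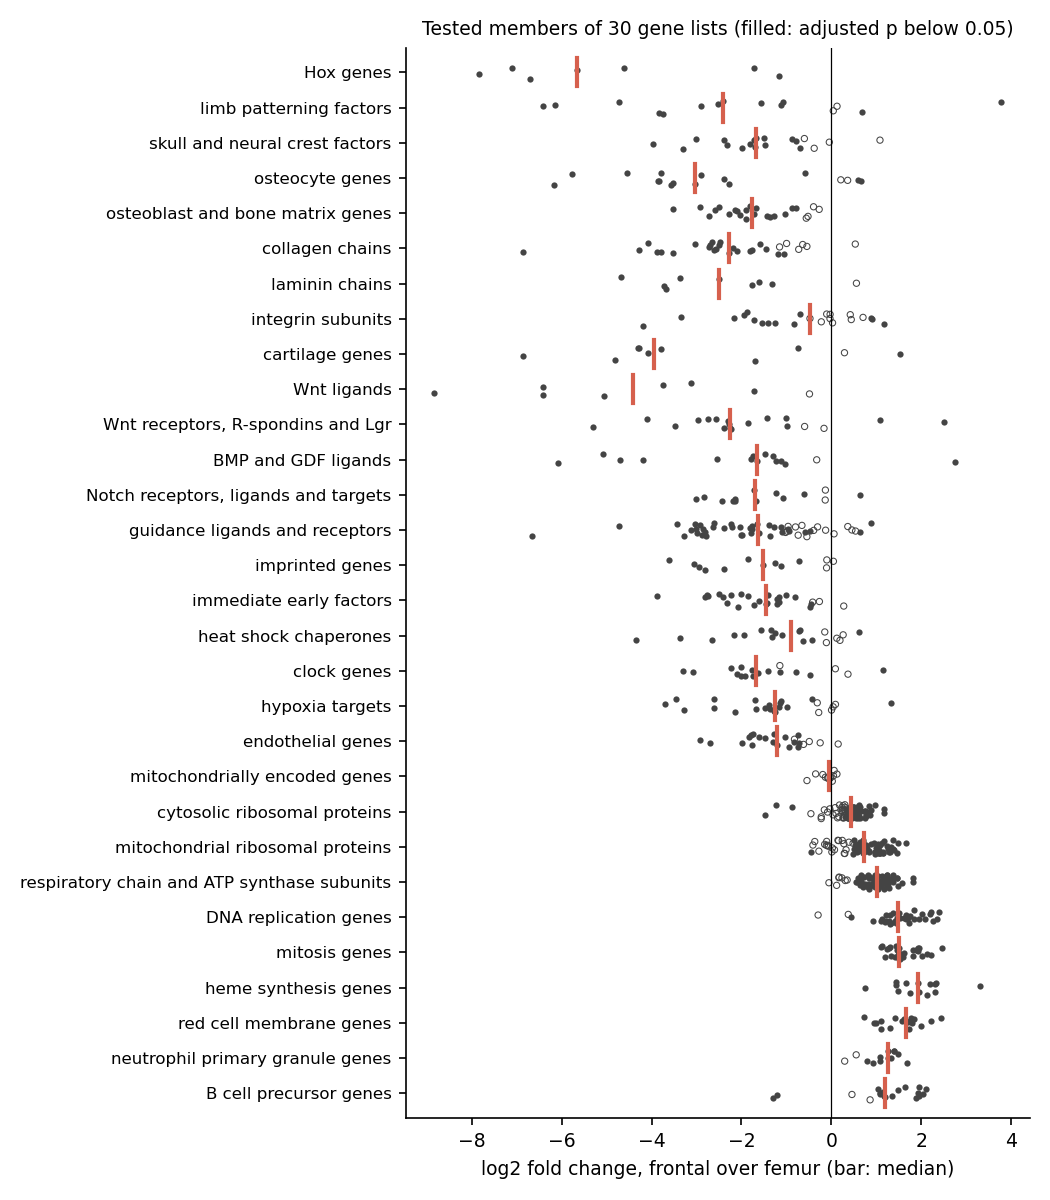
Log2 fold change of frontal over femur (x axis) for every tested member of 30 gene lists (rows), with filled points for members called at an adjusted p below 0.05, open points for the rest, and a bar at the median. Position, matrix, signalling and stress lists lie left of 0, cell division, respiratory chain and blood lists lie right, and mitochondrially encoded genes sit at 0.

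Red cell genes rose throughout. All 14 heme synthesis genes tested rose, as did all 18 red cell membrane genes and all 4 globin genes, and 15 of 17 erythroid regulators did. Hbb-bs, an adult beta globin, stood at 6199, 11479.9 and 14229 CPM in femur and 45311, 32636 and 50790.2 CPM in frontal bone (2.01 ± 0.34). Globin genes are near-identical copies, so single values are uncertain. Klf1, the factor that switches on adult globin, stood at 10.2, 23.5 and 33.5 and 119, 118 and 106 CPM (2.33 ± 0.32), and Gfi1b, a repressor needed to form red cells and platelets, at 7.76, 7.95 and 14.4 and 55.5, 31.0 and 43.2 CPM (2.10 ± 0.29). In these genes femur library 1 was the lowest of all 6 libraries. The enzymes Alad (2.19), Urod (1.95) and Fech (1.93), Tmem14c, which moves heme precursors in mitochondria (2.12), and the membrane protein Rhd (2.45) rose too.

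Promoters of red cell genes were searched for GATAA, the core that the erythroid factor GATA1 binds, on both strands in the same 250 bases. The motif was in 17 of the 40 listed and tested genes with a promoter in the table, or 42.5%, in 14.6% of the 10192 promoters of tested genes and in 23% of all 27025 promoters. It was in all 4 globin promoters, in 6 of 14 for the regulators, 3 of 12 for heme synthesis and 5 of 11 for the red cell membrane. The promoters of Gfi1b, Tal1, Tmem14c and Rhd are printed as examples from the regulator, heme synthesis and membrane lists, all 4 genes having risen, by 2.10, 1.55, 2.12 and 2.45. They run 5′ to 3′ with the match in capitals (TTATC where it lies on the other strand), from chr2:28621983-28622232 (minus strand), chr4:115056176-115056425 (plus), chr13:41016000-41016249 (plus) and chr4:134864286-134864535 (plus).
Gfi1b: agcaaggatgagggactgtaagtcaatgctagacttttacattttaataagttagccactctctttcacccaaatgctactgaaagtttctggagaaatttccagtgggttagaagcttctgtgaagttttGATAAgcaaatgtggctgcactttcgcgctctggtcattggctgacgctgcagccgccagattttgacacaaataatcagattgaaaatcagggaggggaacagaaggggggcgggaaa
Tal1: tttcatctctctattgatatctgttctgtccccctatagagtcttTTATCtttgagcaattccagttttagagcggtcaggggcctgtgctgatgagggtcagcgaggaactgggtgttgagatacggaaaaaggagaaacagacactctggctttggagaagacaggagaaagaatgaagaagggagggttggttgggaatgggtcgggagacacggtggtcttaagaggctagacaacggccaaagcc
Tmem14c: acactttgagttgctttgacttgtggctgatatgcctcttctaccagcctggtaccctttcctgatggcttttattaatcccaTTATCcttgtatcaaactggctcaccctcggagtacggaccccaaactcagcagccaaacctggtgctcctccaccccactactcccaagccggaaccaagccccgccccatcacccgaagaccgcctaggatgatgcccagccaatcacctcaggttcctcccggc
Rhd: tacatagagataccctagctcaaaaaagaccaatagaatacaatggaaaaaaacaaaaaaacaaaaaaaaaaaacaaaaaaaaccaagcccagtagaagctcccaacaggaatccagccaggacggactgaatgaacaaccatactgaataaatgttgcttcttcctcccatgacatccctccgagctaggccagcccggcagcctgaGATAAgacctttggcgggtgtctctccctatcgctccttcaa
Each of these windows holds 1 match. A short core such as this occurs in many promoters, as the share over all of them shows.

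Of 15 iron handling genes 4 rose and 4 fell, shares near the 27.5% and 29.4% of all genes. Steap3, the iron reductase of red cell precursors, stood at 1.55, 2.65 and 4.57 CPM in femur and 19.5, 16.3 and 13.6 CPM in frontal bone (2.46 ± 0.33), and Tfr2, a transferrin receptor (1.91), and Slc25a37, the mitochondrial iron importer (1.66), rose. Hmox1, which degrades heme, stood at 1350.3, 1084 and 1046 and 191, 128 and 157 CPM (-2.87 ± 0.19), and the ferritin light chain Ftl1 fell by 1.19.

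Neutrophil genes are given by the stage at which they are made. Of 13 primary granule genes, which are made by the youngest precursors, 11 rose, such as Elane at 353, 502 and 585 CPM in femur and 1418, 1106 and 1529 CPM in frontal bone (1.49 ± 0.21). Of 17 later granule genes 10 rose, such as S100a8 at 3758, 6353 and 8164 and 19609, 16309 and 22859 CPM (1.69 ± 0.30), and 16 rose without femur library 4. Of 15 genes of mature neutrophils 8 rose, or 5 with the trend on length and GC removed, and Ptgs2, described above, fell. The difference between these lists was not tested. Genes of eosinophils, basophils and mast cells rose in 14 of 18 cases. Prg2, the major basic protein of eosinophil granules, stood at 751, 670.2 and 986 CPM in femur and 2912, 2333 and 3344 CPM in frontal bone (1.83 ± 0.21). Ear2 (2.61), Ear1 (2.43) and Ear6 (2.12), ribonucleases of eosinophils that are close copies of each other, rose, as did the mast cell protease Cpa3 (1.61), while Kit (-1.17) and Gata2 (-0.79) fell. Gata2 did not pass without femur library 2 or 4 or frontal library 4 (-0.55 to -0.78, adjusted p = 0.0537 to 0.0727), nor with the trend on length and GC removed (-0.40, adjusted p = 0.12), nor with library size or upper quartile scaling (adjusted p = 0.0667 and 0.0578).

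Lymphoid genes rose as well. Of 19 B cell precursor genes 15 rose, such as Vpreb1, part of the surrogate light chain, at 8.79, 6.81 and 12.5 CPM in femur and 37.8, 35.3 and 35.6 CPM in frontal bone (1.95 ± 0.23), and 16 of 19 mature B cell genes did, such as Ms4a1 (1.93) and Ly6d (1.95). T cell genes rose in 10 of 17 cases, including Cd3d (2.03) and Lck (1.82), though Tcf7, a factor that other cells also use, fell (-1.92). Of 20 natural killer and cytotoxic genes 15 rose. Ncr1, which defines natural killer cells, stood at 0.345, 0.568 and 0.937 CPM in femur and 3.96, 4.49 and 5.93 CPM in frontal bone (2.88 ± 0.40). Monocyte genes rose in 8 of 16 cases and fell in 4, with Ly6c2 at 1.57, Spn at 2.12 and Ace at -2.35. Among chemokines and receptors 14 (9 with the trend on length and GC removed) of 43 rose and 9 fell. Ccr3 of eosinophils rose (1.56), and the scavenging receptor Ackr3 fell the most (-3.82).

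Vessel genes were lower in frontal bone. Of 23 endothelial genes 18 fell. Emcn, endomucin, which marks the capillaries of growing bone, stood at 134, 113 and 111 CPM in femur and 24.9, 38.5 and 42.5 CPM in frontal bone (-1.75 ± 0.20), and Robo4 (-1.78), Flt1 (-1.61) and Sox17 (-2.69) fell too. Smooth muscle and pericyte genes fell in 9 of 12 cases, Cspg4, the NG2 proteoglycan of pericytes, standing at 328, 273 and 182 and 4.92, 7.36 and 3.96 CPM (-5.56 ± 0.30). Of 19 marrow stroma and fat cell genes 9 rose, Ebf1 by 1.15 and Lpl by 0.75, and 3 fell, among them Cfd (-4.003) and Foxc1 (-1.99). Ebf1 is also a member of the B cell precursor list.

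Tissues next to the skull were checked by their markers. Of 11 genes of the meninges 6 rose and 5 fell. Slc6a20a and Slc6a13, transporters of the meninges, rose (3.07 and 1.36), as did Dpp4 (1.498), while Foxc2 and Smoc2 fell (-3.01 and -3.08). Ptgds, among the most abundant meningeal transcripts, had at most 5 counts in any library. The list took 0.0513 to 0.0535% of counts in femur and 0.0585 to 0.0667% in frontal bone. Mylpf stood out from the rest of the skeletal muscle list. Tnni2 rose (1.83), though not without femur library 1 or 2 or frontal library 1 or 4 (1.40 to 1.79, adjusted p = 0.0631 to 0.102). Ttn did not pass (-0.84 ± 0.37), but fell without frontal library 4 (-1.20, adjusted p = 0.0284). Acta1 had 2, 18 and 6 counts in femur and 9, 8 and 6 in frontal bone, and Ckm at most 3 in any library. The list took 0.00134 to 0.00206% of counts in femur and 0.00243 to 0.00409% in frontal bone, Mylpf included. The part of other tissues in the rises of Slc6a20a and Mylpf was not tested.

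Genes that rose and fell also differed in build. Genes past the stricter test upward had a median length of 2106 bases for their longest transcript, those past it downward 4084.5 bases, and all tested genes 3170 bases. Their median GC contents were 48.0, 51.9 and 49.4%. Protein-coding genes made up 88.3% of the rises, 96.0% of the falls and 88.0% of all genes tested. Across 10 bins of equal gene number, the median log2 fold change went from 0.51 in the shortest transcripts to -0.58 in the longest. With each library's trend on length and GC removed, 612 genes rose and 1299 fell past the stricter test. On that scale 62 of 76 respiratory chain genes and 28 of 28 mitosis genes were higher.

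**Figure D5:**
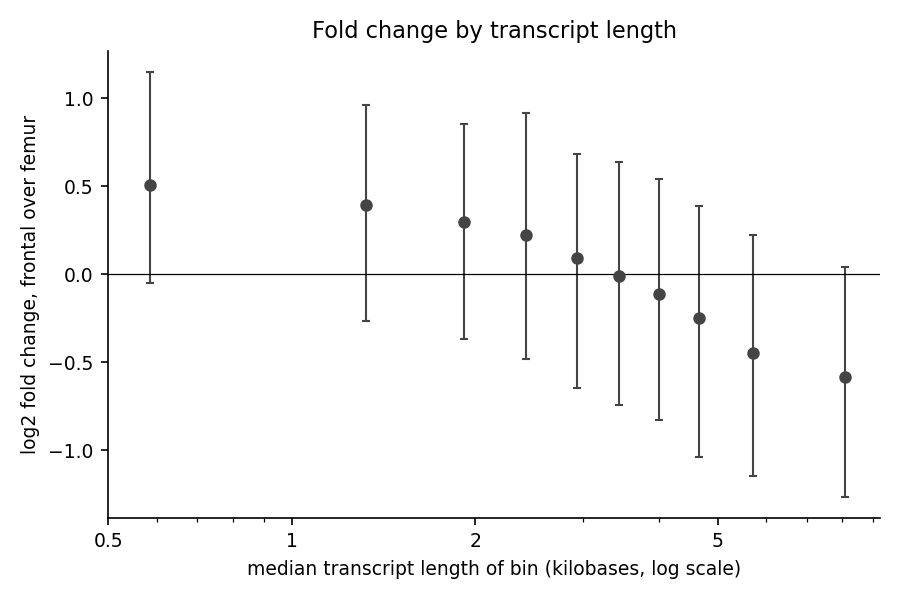
Median log2 fold change of frontal over femur (points) with the range from the lower to the upper quartile (bars) in 10 bins of tested genes of equal number, ordered by the length of the longest transcript in kilobases (x axis, log). The median falls from 0.51 in the shortest to -0.58 in the longest bin.

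Frontal bone was last set against parietal bone, the neighbouring skull bone, which comes from mesoderm in the mouse. This comparison shares the frontal libraries with the one above, so the values are given side by side and not as separate support. In a fit of all 8 libraries, 1118 of 15511 genes differed between the skull bones, which is 7.21%. Of the 15 largest rises against femur, 2 also differed from parietal bone. On the CPM scale of that fit, Slc6a20a stood at 6.42 and 5.14 CPM in parietal libraries 2 and 4 (1.11 ± 0.27, adjusted p = 0.0378) and Tac2 at 5.27 and 5.24 CPM (0.96 ± 0.26, adjusted p = 0.0463), both below the frontal levels. Of the 15 largest falls, 0 differed between the skull bones by edgeR (3 at an unadjusted p below 0.05), and of the 15 most abundant falls Spp1 did (-1.06 ± 0.27, adjusted p = 0.0403), with 17341 and 17602 CPM in parietal bone. Fgf23 was higher in frontal than in parietal bone, where it stood at 1.68 and 3.01 CPM (1.98 ± 0.46, adjusted p = 0.0361), though it had not passed against femur. En1 stood at 1.99 and 1.65 CPM in parietal bone and Alx4 at 4.43 and 4.46 CPM. These calls rested on few libraries: without frontal library 1, parietal library 2 or parietal library 4, 0 genes differed between the skull bones by edgeR, while 3061, 3165 and 2520 had an unadjusted p below 0.05. Without those libraries Fgf23 stood at 1.40, 1.64 and 2.48 (adjusted p = 0.13, 0.191 and 0.227). Without frontal library 4, Slc6a20a, Tac2 and Spp1 did not pass either (adjusted p = 0.0668, 0.0834 and 0.0931).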

How the data were processed

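RNA from osteocyte-enriched bone fractions was made into Nextera XT libraries and read in paired end mode, per the labels' protocols. The authors deposited raw read counts per gene, which hold whole numbers, without normalization. Per the submitters' processing notes, the tools included limma, edgeR, DESeq2 and STAR 2.5.2a, with mm10 and GRCm38.p3 as builds. Which program counted reads, whether strand was used and which annotation release was taken were not given in the sources used here. Reads of a gene and of an overlapping or antisense gene thus cannot be separated. Filtered and scaled tables were not used.

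The 92 spike-in rows (0.0286 to 0.176% of counts) were dropped, leaving 43346 genes. Symbols, positions and lengths came from GENCODE M21 on GRCm38, which matched 42462 genes, and the other 884 held 0.114 to 0.151% of counts. Counts of the 6 libraries were filtered by filterByExpr, scaled by TMM and fitted with edgeR 4.0.16 (robust quasi-likelihood, bone as the only term, 4 residual degrees of freedom, R 4.3.3), with Benjamini-Hochberg adjustment over 14308 genes and glmTreat for changes beyond 2-fold. The biological coefficient of variation was 19.4%. No libraries agreed within sampling noise. Parietal bone entered a fit of all 8 libraries. On simulated counts with 200 of 14308 genes changed in frontal against femur, 54% of 2-fold and 93% of 4-fold changes were recovered, with 6 false calls. Alternatives were RLE, upper quartile and no scaling factors, other filters, all 8 libraries, each library left out, a replicate block, removal of each library's trend on length and GC, limma-voom (limma 3.58.1) and DESeq2 1.42.0.

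The members and lists were chosen with earlier results of these data known. Genes were named by rule. The rule took the 15 largest changes in each direction with at least 5 CPM in the higher bone and no overlap, leaving out predicted models, antigen receptor segments and pseudogenes. It took from each list up to 4 called members in the commoner direction, up to 3 in the other, and the 2 most abundant. It also took the 15 most abundant calls beyond 2-fold in each direction, and Dmp1, Sost, Tac2, Mylpf, Slc6a20a and Aldh1a7. Counting intervals are exact at 95%, floors are 3 counts, and both cover counting error only. Some list members were not analysed here, and some genes that the rule names are not reported here.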

Additional observations from a re-analysis of the deposited data

Results flagged for a closer look

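Of the 15 largest and 15 most abundant changes in each direction, 3 genes differed from parietal bone as well as from femur. That is, their difference from femur was not the same in frontal and parietal bone by edgeR's test of that difference. The other genes named were not counted in this way, and 7.21% of all genes tested differed between the skull bones. Slc6a20a was higher in frontal than in parietal bone by 1.11 on the log2 scale (adjusted p = 0.0378) and Tac2 by 0.96 (adjusted p = 0.0463), each in 3 of 3 frontal libraries against both parietal ones. Spp1 was lower in frontal bone (-1.06, adjusted p = 0.0403), again in 3 of 3 libraries. Fgf23, which did not pass against femur, also differed between the skull bones, being higher in frontal bone (1.98, adjusted p = 0.0361) in 3 of 3 libraries, and its call was lost without frontal library 1 (1.40, adjusted p = 0.13), parietal library 2 (1.64, adjusted p = 0.191) or parietal library 4 (2.48, adjusted p = 0.227). None of the other 3 calls held without frontal library 1 or 4 or parietal library 2 or 4, where Slc6a20a stood at 1.00 to 1.31 (adjusted p = 0.0668 to 0.254), Tac2 at 0.88 to 1.00 (adjusted p = 0.0834 to 0.254) and Spp1 at -1.04 to -0.85 (adjusted p = 0.0931 to 0.257). With 1 parietal library left, that library is assumed to vary like the other bones.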

How the results depend on the processing

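In the comparison with femur, plain calls ran from 3199 to 4886 upward and from 3546 to 4413 downward over all alternatives, and falls beyond 2-fold from 1136 to 1732. Rises beyond 2-fold were 1118 with upper quartile factors, 370 with limma-voom, 349 with DESeq2 and 458 to 843 with 1 library left out. Rises and falls against parietal bone, 607 and 511, were 0 to 927 and 0 to 1036 with 1 library left out. Of 68 list counts under 1156 alternatives 30 moved by more than 1.5 times, in 12 lists. Without the filter on low counts, 10 FGF genes and 10 neuropeptide genes fell, and with all 8 libraries fitted 7 neuropeptide genes did. With the length and GC trend removed, 14 cytosolic ribosomal, 9 chemokine, 5 mature neutrophil, 5 macrophage and 2 megakaryocyte genes rose and 4 hormone receptors fell. Upper quartile factors gave 5 falling interferon genes. With 1 library left out, rises ran from 9 to 16 for later granule genes, 2 to 8 for osteoclast, 1 to 2 for skeletal muscle, 5 to 7 for macrophage and 1 to 9 for megakaryocyte genes, and falls of interferon genes from 5 to 8. Of 283 genes named, under 4811 alternatives, 47 calls were lost and 10 gained, in 18 genes, and 0 calls changed direction. Without the filter, Mmp8, Cfd and Col1a2 did not pass (adjusted p = 0.099, 0.052 and 0.0972).

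Libraries share numbers across bones, and the labels do not tell whether a number marks the same animal. Deviations from the bone mean correlated at -0.10, -0.12 and 0.03 between same-numbered libraries, and at -0.13 to 0.20 between the others. With 3 libraries a bone these correlations cannot decide whether libraries are paired, so a replicate block was kept as an alternative. With a replicate block, 668 genes rose and 1484 fell beyond 2-fold, Lfng (0.64, adjusted p = 0.0623) and Sema4b (0.63, adjusted p = 0.0537) did not pass, and Alx4 did (1.11, adjusted p = 0.041). With the block and the length and GC trend removed, 11 cytosolic ribosomal, 9 chemokine, 4 macrophage and 2 megakaryocyte genes rose. A replicate block between frontal and parietal bone, added after the data were seen, left 0 genes in either direction, with 3504 at an unadjusted p below 0.05. Depth limits the low genes, since a count of 0 in a library of these sizes allows up to 3 counts. Simulated 2-fold changes, placed in genes of any level, were recovered in 54% of cases. That simulation changed 200 of 14308 genes, whereas 56.9% were called in the data, so its rate does not carry over to this comparison.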

Other observations

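Of 20 stem and progenitor genes tested 8 fell and 4 rose. The list took 0.0576 to 0.0661% of counts in femur and 0.0441 to 0.0525% in frontal bone. Procr, the endothelial protein C receptor, which stem cells and vessels share, stood at 136, 114 and 92.4 CPM in femur and 38.4, 19.9 and 36.4 CPM in frontal bone (-1.86 ± 0.25, adjusted p = 0.000211), and Tek, the angiopoietin receptor of the same cells, fell by 1.80 on the log2 scale. Myb, a factor of dividing progenitors, rose by 1.16. Of 19 resident macrophage genes 8 rose and 3 fell, yet the list took a smaller share of counts in frontal bone. That share was 0.218 to 0.237% in femur and 0.150 to 0.167% in frontal bone. Cd5l, a secreted protein of tissue macrophages, stood at 3.28, 6.34 and 9.61 and 19.9, 17.2 and 19.1 CPM (1.51 ± 0.31), and the complement chain C1qc (0.72) and the scavenger receptor Cd163 (1.24) rose, while Mertk (-1.90) and Axl (-0.90), receptors for dying cells, fell. The count of rising macrophage genes was 5 without femur library 1 or frontal library 4. Of 21 megakaryocyte and platelet genes 5 rose and 3 fell, and leaving out 1 library moved the rises from 1 (without femur library 2 or frontal library 1) to 9 (without femur library 4), with 2 without femur library 1. Their share of counts was 0.650 to 0.892% in femur and 0.420 to 0.624% in frontal bone.

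Of 29 interferon-stimulated genes 6 rose and 8 fell, shares no higher than the 27.5% and 29.4% of all genes. Oasl1, an antiviral protein, stood at 41.2, 42.5 and 26.4 CPM in femur and 8.27, 5.35 and 8.05 CPM in frontal bone (-2.35 ± 0.25, adjusted p = 6.41e-05) and Ifit2 fell by 1.20, whereas Ifi27l2a (1.80) rose. The count of falls was 5 without frontal library 1. Hormone receptors fell in 7 of 20 cases and rose in 2, with the thyroid hormone receptor Thrb at 12.2, 7.57 and 7.73 and 1.80, 4.20 and 1.84 CPM (-1.75 ± 0.37) and Calcrl, a part of the receptor for calcitonin gene-related peptide, at -1.41.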
